A study of Oryza sativa with 16 samples.

Results

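Jasmonate synthesis in the rice panicle was followed through 7 genes, taken from the panicle count table by their locus identifiers. They were the lipoxygenases LOC_Os08g39840, LOC_Os08g39850 and LOC_Os02g10120, the allene oxide synthases AOS1 (LOC_Os03g55800) and AOS2 (LOC_Os03g12500), the allene oxide cyclase AOC (LOC_Os03g32314) and the 12-oxo-phytodienoate reductase OPR7 (LOC_Os08g35740). These were 7 of the 55801 genes in the table, and all 7 were among the 33698 genes tested. LOC_Os02g10120 lies on chromosome 2, AOS1, AOS2 and AOC on chromosome 3, and OPR7 and the other lipoxygenases on chromosome 8, where LOC_Os08g39840 and LOC_Os08g39850 are consecutive loci of the table.

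Jasmonates are plant hormones made from unsaturated fatty acids of plastid membranes. Lipoxygenases add oxygen to the fatty acid, allene oxide synthase turns the product into an unstable epoxide, and allene oxide cyclase closes the ring. The ring is then reduced by an OPR enzyme in the peroxisome and its side chain is shortened to jasmonic acid. The amino acid conjugate of jasmonic acid is perceived by a receptor that removes JAZ repressors, and in grass flowers the hormone is known for its part in spikelet development, anther opening and floret opening.

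Panicles of 2 rice genotypes were sequenced under reproductive-stage drought stress (RDS) and under well-watered conditions. DTY-IL is a single introgression line with fragments from N22, a drought-tolerant donor, in the genome of Swarna, its drought-sensitive recurrent parent. Plants grew in greenhouse pots, and for RDS the soil moisture was lowered to 75% of field capacity during 9 days, then to 50% during 3 days. Panicles of both treatments were harvested on day 12. There were 4 libraries of DTY-IL under RDS, 4 of well-watered DTY-IL, 4 of Swarna under RDS and 3 of well-watered Swarna. A well-watered Swarna library, control replicate 3, was left out. The paper describes the replicates of each genotype and tissue as independent and biological. The table columns are not tied to pots, so libraries could not be paired by pot. The p-values set differences between groups against the spread between these libraries.

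Total counts of the 15 libraries ran from 24677520 to 31080042. Levels are given as CPM, a gene's counts per 1000000 counts of its library, after TMM normalisation, and the genes of a library are not compared with each other because no gene lengths were used. A count of 0 allows up to 3 counts, or 0.0965 to 0.122 CPM of the library total in these 15 libraries, and this limit covers counting error only. The labelled tissue was checked with 5 MADS-box loci of the panicle, which summed to 790.9 to 1348 CPM in the 15 libraries and were all detected. In Swarna control replicate 3 they summed to 456 CPM, with 4 of the 5 loci below and 1 above their range in the 15 libraries. LOC_Os08g41950 and LOC_Os09g32948 had 1 count each, against 3112 to 7446 and 1746 to 5975 counts, while LOC_Os03g54160 had 11259 counts, against 3907 to 6204.

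Under RDS 1 of the 7 jasmonate synthesis genes fell in DTY-IL and 6 fell in Swarna. In DTY-IL the gene that fell was OPR7 and none rose, against 17% of all tested genes that fell and 16% that rose at an adjusted p of at most 0.05 in edgeR's quasi-likelihood test. In Swarna all but LOC_Os02g10120 fell and none rose, against 22.7% of all tested genes that fell and 21.6% that rose. The median log2 fold change of the 7 genes was -0.61 in DTY-IL, where that of all tested genes was -0.03, and -1.61 in Swarna, where that of all tested genes was 0.005. The fold change was negative for 6 of 7 genes in DTY-IL and for 7 of 7 in Swarna. The difference between the genotypes was tested as the interaction of genotype and drought, and it passed for 0 of the 7 genes, against 0.0594% of all genes. At an unadjusted p under 0.05 the interaction held for 2 of the 7 genes and 12.3% of all genes, and DESeq2 called 2 of 7 after adjustment, AOS1 and LOC_Os08g39850, against 2.93% of all genes to which it gave an adjusted p. In these whole panicles a smaller share of the cells that express a gene and less RNA per cell cannot be told apart.

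**Figure D1:**
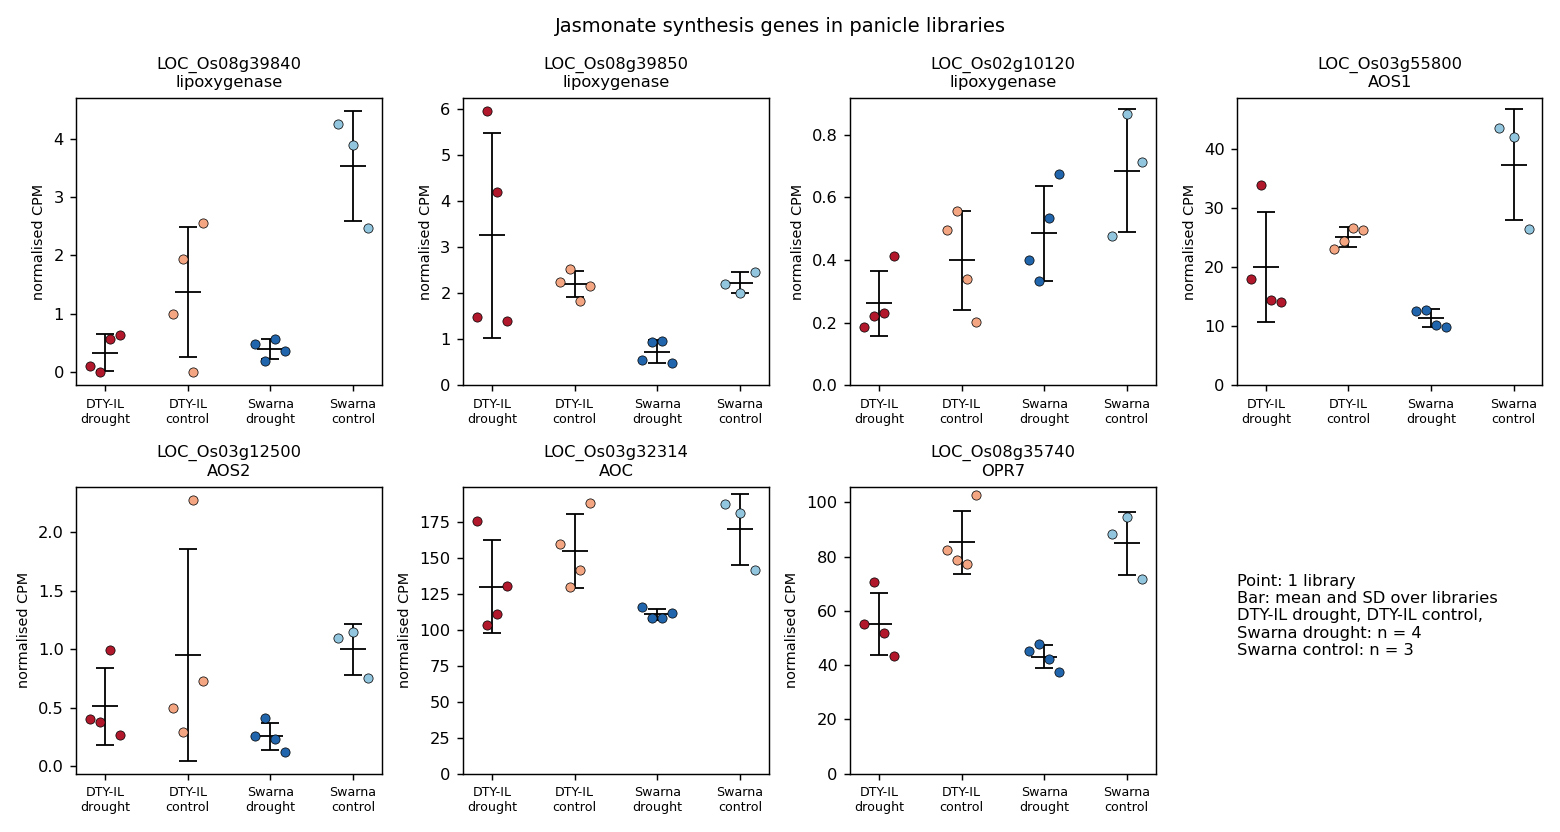
Normalised CPM of the 7 jasmonate synthesis genes in each library, with 1 panel per gene and its own vertical axis from about 0. Points are libraries and bars give the mean and SD (n = 4, and n = 3 for well-watered Swarna). LOC_Os08g39850 spans 1.39 to 5.97 CPM in DTY-IL under RDS, and OPR7 lies at 37.6 to 47.8 CPM in Swarna under RDS against 71.9 to 94.5 CPM in well-watered Swarna.

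LOC_Os08g39840 was the lipoxygenase with the largest drought estimate of the 7 genes in each genotype. In DTY-IL the levels were 0.111, 0, 0.573 and 0.640 CPM under RDS and 0.991, 1.93, 0 and 2.55 CPM in controls, so a library without a single count stood in each group. The log2 fold change in DTY-IL was -2.05 ± 0.967 (SE, edgeR adjusted p = 0.115, 95% interval -4.12 to 0.02). It became -2.47 with an adjusted p of 0.0203 when DTY-IL control replicate 3, the control library at 0, was left out. In Swarna its levels were 0.472, 0.185, 0.574 and 0.358 CPM under RDS, against 4.24, 3.88 and 2.46 CPM in controls, and the groups did not overlap. It fell 8.8-fold in Swarna, a log2 fold change of -3.14 ± 1.0 (edgeR adjusted p = 0.0202), on 5 to 15 counts per library under RDS and 69 to 116 in controls. This call was lost without Swarna control replicate 1 (adjusted p = 0.054) and without Swarna drought replicate 2 (adjusted p = 0.0547), at log2 fold changes of -2.98 and -2.86, and when all 16 libraries were fitted (-2.84, adjusted p = 0.06).

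LOC_Os08g39850, the neighbouring lipoxygenase, varied widely among the DTY-IL libraries under RDS and fell in Swarna. In DTY-IL its levels were 1.47, 5.97, 4.20 and 1.39 CPM under RDS and 2.25, 2.52, 1.84 and 2.14 CPM in controls. Replicates 2 and 3 under RDS lay above every control and replicates 1 and 4 below every control, with an SD of 68.3% of the mean under RDS and 12.9% in controls. The log2 fold change in DTY-IL was 0.58 ± 0.408 (edgeR adjusted p = 0.292). In Swarna it stood at 0.545, 0.925, 0.956 and 0.477 CPM under RDS, against 2.20, 2.01 and 2.46 CPM in controls. This was a 3.05-fold fall (log2 fold change -1.61 ± 0.457, edgeR adjusted p = 0.0108), and it was called in all 15 fits that left out a library.

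LOC_Os02g10120, also a lipoxygenase, was close to the detection limit in all 15 libraries, with 5 to 25 counts each. In DTY-IL it had 0.184, 0.220, 0.229 and 0.414 CPM under RDS and 0.495, 0.556, 0.340 and 0.202 CPM in controls. Its levels were 0.400, 0.333, 0.535 and 0.676 CPM in Swarna under RDS, against 0.476, 0.867 and 0.713 CPM in well-watered Swarna. The groups overlapped in both genotypes. The log2 fold changes were -0.61 ± 0.41 in DTY-IL and -0.50 ± 0.414 in Swarna (edgeR adjusted p = 0.265 and 0.351), and no change was detectable at this depth. The genes LOC_Os08g39840 and LOC_Os08g39850 followed each other little across the 15 libraries (Pearson r of log2 CPM 0.05), and how far reads could be divided between these adjacent lipoxygenases was not examined here.

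AOS1, an enzyme of the allene oxide step, had 17.9, 33.8, 14.4 and 14.01 CPM in DTY-IL under RDS and 23.1, 24.4, 26.6 and 26.3 CPM in well-watered DTY-IL. Drought replicate 2 lay above all controls and the other drought libraries below them. The log2 fold change was -0.32 ± 0.25 (edgeR adjusted p = 0.337), and without drought replicate 2 it was -0.74 with an adjusted p of 0.0121. The same library had the highest LOC_Os08g39850 and OPR7 levels of its group, no count of LOC_Os08g39840, and the lowest summed level of 3 green tissue loci of its group, 311.9 CPM against 1665 to 3849 CPM in the other DTY-IL drought libraries. Their part in the AOS1 value was not tested.

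In Swarna, AOS1 had the lowest adjusted p of the 7 genes for drought. Its levels were 12.6, 12.7, 10.2 and 9.85 CPM under RDS, against 43.6, 42.0 and 26.5 CPM in controls, and every library under RDS was below every control. AOS1 fell 3.29-fold (log2 fold change -1.72 ± 0.27, edgeR adjusted p = 0.000203), and was called in all 15 fits that left out a library. Among the 7 genes it alone was also called in Swarna by a test against a log2 fold change of 1, where its adjusted p was 0.02.

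AOS2, the other allene oxide synthase, was a weakly covered gene with 3 to 67 counts per library. In DTY-IL it stood at 0.405, 0.377, 0.993 and 0.264 CPM under RDS and at 0.495, 0.295, 2.28 and 0.728 CPM in controls. The log2 fold change of -0.90 ± 0.59 (edgeR adjusted p = 0.257) rested on DTY-IL control replicate 3, the library at 2.28 CPM, and was 0.02 without it. That library also stood apart in a list of 8 anther and tapetum loci, which summed to 608.9 CPM there and to 52.99 to 132 CPM in the other DTY-IL controls. The part of this list in the AOS2 level was not tested.

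In Swarna, AOS2 had 0.254, 0.407, 0.229 and 0.119 CPM under RDS, against 1.10, 1.14 and 0.749 CPM in controls. The groups did not overlap, and AOS2 fell 3.88-fold (log2 fold change -1.96 ± 0.658, edgeR adjusted p = 0.026). This call held in 11 of 15 fits that left out a library. It was lost without Swarna control replicate 1 (adjusted p = 0.0647) or 2 (0.0691) and without Swarna drought replicate 3 (0.0555) or 4 (0.0661), with log2 fold changes from -1.91 to -1.73, and when all 16 libraries were fitted (-1.62, adjusted p = 0.122).

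AOC, the cyclase that follows the synthases, had 175, 104, 111 and 130 CPM in DTY-IL under RDS and 159, 129, 141 and 188 CPM in well-watered DTY-IL, with overlap. The log2 fold change was -0.25 ± 0.172 (edgeR adjusted p = 0.277), and -0.47 with an adjusted p of 0.0441 without DTY-IL drought replicate 1, the library at 175 CPM.

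In Swarna, AOC changed by the smallest amount among the genes that fell. It had 115, 108, 108 and 111 CPM under RDS, against 187, 181 and 141 CPM in controls. AOC fell 1.53-fold (log2 fold change -0.62 ± 0.185, edgeR adjusted p = 0.0144). The 4 Swarna libraries under RDS were close to each other, with an SD of 3.25% of the mean. The call was lost without Swarna control replicate 1 (log2 fold change -0.54, adjusted p = 0.0609) and without Swarna control replicate 2 (-0.57, adjusted p = 0.0511).

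OPR7, the reductase of the pathway's peroxisomal step, was the 1 member that fell in both genotypes. In DTY-IL it had 55.1, 70.7, 52.1 and 43.4 CPM under RDS, against 82.5, 78.7, 77.3 and 103 CPM in controls, a 1.54-fold fall (log2 fold change -0.62 ± 0.157, edgeR adjusted p = 0.00856). It had 45.1, 47.8, 42.2 and 37.6 CPM in Swarna under RDS, against 88.5, 94.5 and 71.9 CPM in well-watered Swarna, a 1.97-fold fall (log2 fold change -0.98 ± 0.168, edgeR adjusted p = 0.000391). In both genotypes every library under RDS was below every control, and both calls held in all 15 fits that left out a library. The call in DTY-IL was lost when all 16 libraries were fitted (adjusted p = 0.109). Neither call held in the test against a log2 fold change of 1, with adjusted p of 1 in DTY-IL and 0.699 in Swarna.

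**Figure D2:**
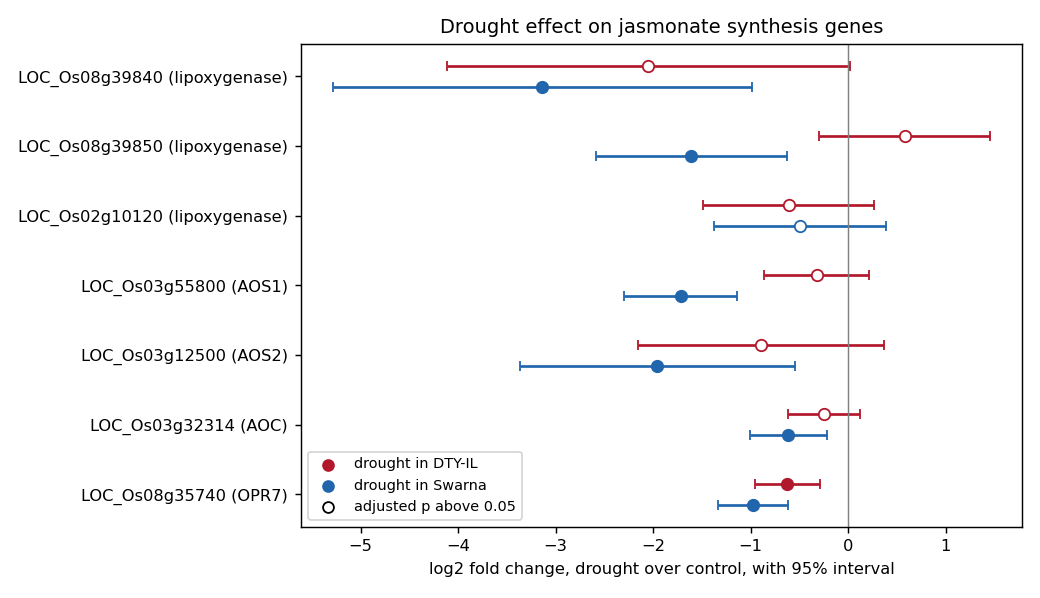
Log2 fold change under RDS over well-watered controls for each of the 7 genes, in DTY-IL (upper point of each pair) and in Swarna (lower point), with the 95% interval of the edgeR fit. Filled points had an adjusted p of at most 0.05, 1 of 7 in DTY-IL and 6 of 7 in Swarna, and LOC_Os08g39850 is the gene whose estimates have opposite signs, 0.58 and -1.61.

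The introgression line and its parent were then compared within each treatment. Under RDS, 1 of the 7 genes differed, LOC_Os08g39850, against 5% of all tested genes in either direction. Its level averaged 3.26 ± 2.23 CPM in DTY-IL and 0.726 ± 0.250 CPM in Swarna under RDS (SD, n = 4 each), every DTY-IL library was above every Swarna library, and the fold was 4.48 (log2 fold change 2.16 ± 0.436, edgeR adjusted p = 0.0114). The call held in all 15 fits that left out a library (adjusted p 0.00424 to 0.0366). It was lost when only the drought groups were fitted (adjusted p = 0.0705), when all 16 libraries were fitted (0.176) and in the test against a log2 fold change of 1 (0.144).

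AOS1 averaged 20.04 ± 9.35 CPM in DTY-IL and 11.3 ± 1.498 CPM in Swarna under RDS (SD, n = 4 each) without overlap, a log2 fold change of 0.82 ± 0.253. Its adjusted p was 0.0752 in edgeR and 0.0334 in DESeq2, which in this comparison called 12% of all genes to which it gave an adjusted p. DTY-IL drought replicate 2 had 33.8 CPM of AOS1, and the other DTY-IL drought libraries had 14.01 to 17.9 CPM. Over the 15 fits that left out a library the log2 fold change ran from 0.459 to 0.96. None of these fits called it (edgeR adjusted p 0.0508 to 0.186). OPR7 averaged 55.3 ± 11.4 CPM in DTY-IL and 43.2 ± 4.37 CPM in Swarna under RDS, with overlap (log2 fold change 0.36 ± 0.157, edgeR adjusted p = 0.201). LOC_Os02g10120 averaged 0.262 ± 0.103 CPM in DTY-IL and 0.486 ± 0.152 CPM in Swarna under RDS, with overlap (log2 fold change -0.88 ± 0.409, edgeR adjusted p = 0.227). For LOC_Os08g39840, AOS2 and AOC the genotypes overlapped under RDS, with log2 fold changes of -0.28, 0.99 and 0.23 and edgeR adjusted p of 0.389 to 0.909. The 95% intervals of these differences were -2.44 to 1.87 for LOC_Os08g39840, -0.37 to 2.35 for AOS2 and -0.14 to 0.60 for AOC.

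In well-watered panicles 0 of the 7 genes differed between DTY-IL and Swarna by edgeR's test, against 1.2% of all tested genes. DESeq2 called 0 of the 7, against 2.97% of all genes to which it gave an adjusted p. At an unadjusted p under 0.05 there was 1 gene, AOS1, and 11% of all genes. AOS1 averaged 25.1 ± 1.65 CPM in DTY-IL (SD, n = 4) and 37.4 ± 9.46 CPM in Swarna (SD, n = 3), with a log2 fold change of -0.57 ± 0.267 (edgeR adjusted p = 0.456). OPR7 averaged 85.3 ± 11.7 CPM in DTY-IL and 84.9 ± 11.7 CPM in Swarna, and the 95% interval of its log2 difference was -0.36 to 0.37. LOC_Os08g39850 averaged 2.19 ± 0.282 CPM in DTY-IL and 2.22 ± 0.227 CPM in Swarna, with an interval of -0.97 to 0.93.

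The interaction of genotype and drought had its lowest p for AOS1 and LOC_Os08g39850, and neither passed in edgeR. For AOS1 the log2 fold change in DTY-IL exceeded that in Swarna by 1.40 ± 0.368, with an unadjusted p of 0.0019 and an adjusted p of 0.174 in edgeR and 0.0329 in DESeq2. For LOC_Os08g39850 the difference was 2.19 ± 0.614, with an unadjusted p of 0.00304 and an adjusted p of 0.202 in edgeR and 0.035 in DESeq2. The other 5 genes had edgeR adjusted p of 0.564 to 0.968. The well-watered and RDS libraries of the interaction are those of the drought and genotype comparisons, so these values are no separate measurement.

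**Figure D3:**
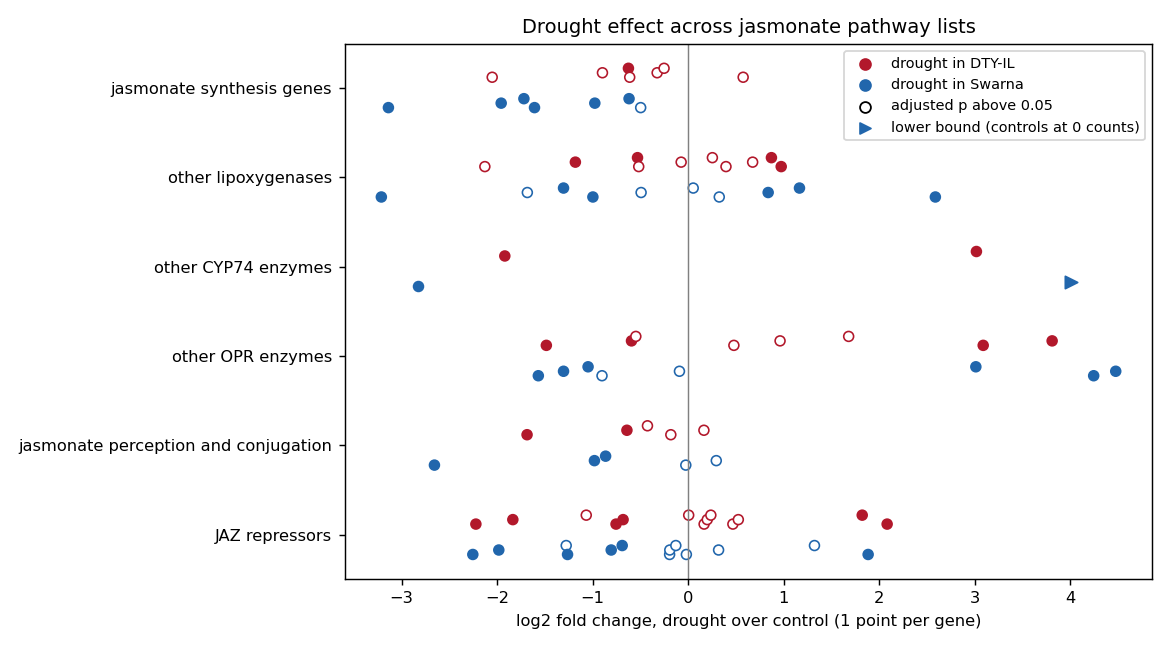
Log2 fold change under RDS over well-watered controls for the jasmonate synthesis genes and 5 lists of related loci, with 1 point per tested gene, DTY-IL above Swarna in each list. Filled symbols had an adjusted p of at most 0.05. The 7 Swarna estimates of the synthesis genes lie at -0.50 or below, while each list of other lipoxygenases, CYP74 enzymes, OPR enzymes and JAZ repressors has filled symbols on both sides of 0. The triangle is a lower bound for LOC_Os02g12680, whose 3 well-watered Swarna libraries had 0 counts.

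Related loci of the same enzyme families were called in both directions under RDS, as were genes at large. Among 10 tested of 12 other lipoxygenase loci, 2 rose and 2 fell in DTY-IL, where 16% of all genes rose and 17% fell, and 3 rose and 3 fell in Swarna, where 21.6% rose and 22.7% fell. These shares are near those of all genes. Their median log2 fold change was 0.09 in DTY-IL and -0.22 in Swarna. LOC_Os12g37350 had the largest estimate of this list in each genotype. In DTY-IL this locus had 4, 2, 0 and 11 counts under RDS against 37, 18, 3 and 21 in controls (edgeR adjusted p = 0.0787). In Swarna it fell, with 4, 0, 2 and 9 counts under RDS against 39, 43 and 33 in controls (log2 fold change -3.21 ± 0.932, edgeR adjusted p = 0.0122).

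Of the other CYP74 loci, the cytochrome P450 family that allene oxide synthases belong to, 2 of 3 were tested, and 1 rose and 1 fell in each genotype. The shares of all tested genes were 16% rising and 17% falling in DTY-IL, and 21.6% rising and 22.7% falling in Swarna. LOC_Os02g12680 had 4, 45, 156 and 13 counts in DTY-IL under RDS against 5, 6, 13 and 4 in controls (log2 fold change 3.02 ± 0.908, edgeR adjusted p = 0.0241). In Swarna it had 41, 51, 61 and 23 counts under RDS and 0 in all 3 controls, at least 16.1-fold higher against a floor of 3 counts per library (edgeR adjusted p = 0.00217). This locus thus rose in both genotypes, where AOS1 and AOS2 were not called in DTY-IL and fell in Swarna.

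Of 8 other OPR loci, all tested, 2 rose and 2 fell in DTY-IL, where 16% of all tested genes rose and 17% fell. In Swarna 3 rose and 3 fell, where 21.6% of all tested genes rose and 22.7% fell. LOC_Os06g11210 rose in both genotypes, with 27, 344, 94 and 48 counts in DTY-IL under RDS against 5, 15, 9 and 6 in controls, a log2 fold change of 3.81 ± 0.706 (edgeR adjusted p = 0.00148). In Swarna it had 49, 90, 69 and 39 counts under RDS against 2, 7 and 1 in controls (edgeR adjusted p = 0.00139). LOC_Os06g11200 had 5 to 75 counts in Swarna under RDS against 1 to 2 in controls (edgeR adjusted p = 0.0136). In DTY-IL LOC_Os06g11200 was not called (log2 fold change 1.68 ± 1.04, edgeR adjusted p = 0.228). LOC_Os06g11290, named after its values were seen, had log2 fold changes of 3.09 ± 0.582 in DTY-IL and 3.01 ± 0.638 in Swarna (edgeR adjusted p = 0.00165 and 0.00173). These 3 loci are numbered close together on chromosome 6, and reads that near-identical copies share could have been divided between them. LOC_Os06g11280, numbered in the same run, fell in both genotypes. Its log2 fold changes were -1.48 ± 0.249 in DTY-IL and -1.05 ± 0.26 in Swarna (edgeR adjusted p = 8e-04 and 0.00492). LOC_Os06g11240, of the same run, was called in neither genotype (edgeR adjusted p = 0.0949 and 0.893). Under RDS 1 OPR locus, LOC_Os01g27240, was higher in DTY-IL than in Swarna, with 9 to 15 counts in DTY-IL and 1 to 5 in Swarna (edgeR adjusted p = 0.0401). Between the genotypes under RDS, 5% of all tested genes differed in either direction.

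Downstream of synthesis, 5 loci listed for jasmonate perception, signalling and conjugation were tested. In DTY-IL 2 fell and none rose, and in Swarna 3 fell and none rose. Among all tested genes, 17% fell in DTY-IL and 22.7% in Swarna. LOC_Os05g50890 had the largest change of the list in each genotype. It had 51.96, 19.16, 21.43 and 51.37 CPM in DTY-IL under RDS against 100.1, 105.9, 190.4 and 66.67 CPM in controls (log2 fold change -1.69 ± 0.415, edgeR adjusted p = 0.00772). In Swarna it had 37.4, 18.27, 12.66 and 30.88 CPM under RDS against 167.3, 132.5 and 169.3 CPM in controls (log2 fold change -2.66 ± 0.447, edgeR adjusted p = 0.000335), without overlap in either genotype.

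Of 13 JAZ repressor loci, 2 rose and 4 fell in DTY-IL and 1 rose and 5 fell in Swarna, with median log2 fold changes of 0.17 and -0.19. Among all tested genes, 16% rose and 17% fell in DTY-IL, and 21.6% rose and 22.7% fell in Swarna. LOC_Os03g08310 fell 4.67-fold in DTY-IL and 4.77-fold in Swarna (edgeR adjusted p = 0.00148 and 0.000822). LOC_Os03g08320 rose 3.54-fold in DTY-IL and 3.7-fold in Swarna (edgeR adjusted p = 0.0113 and 0.0102). The interaction passed for 0 of the 38 tested loci of the 5 lists in edgeR, against 0.0594% of all tested genes. At an unadjusted p under 0.05 there were 5 of the 38 loci, against 12.3% of all tested genes. The lowest p, 0.000255, was that of the lipoxygenase locus LOC_Os12g37320 (log2 difference -1.61 ± 0.334, edgeR adjusted p = 0.112). DESeq2 called 1 of the 38, this locus (adjusted p = 0.00366), against 2.93% of all genes to which it gave an adjusted p. LOC_Os12g37320 rose under RDS in both genotypes, 1.97-fold in DTY-IL and 6.02-fold in Swarna (edgeR adjusted p = 0.00499 and 8.4e-06). The negative difference is thus a smaller rise in DTY-IL. These lists were drawn up from general knowledge of the families, and the loci carry no names in the table.

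Marker lists for late pollen, anther and tapetum, and green tissue moved with RDS too. The 3 late pollen MADS-box loci all fell in both genotypes, and summed to 6.84 to 15.2 CPM in DTY-IL under RDS against 22.2 to 59.5 CPM in controls, and to 5.87 to 22.3 CPM in Swarna under RDS against 80.5 to 87.5 CPM in controls. Of 8 anther and tapetum loci, 3 fell in each genotype and none rose. Among all tested genes, 17% fell in DTY-IL and 22.7% in Swarna. The median log2 fold change of the list was -1.97 in DTY-IL and -0.29 in Swarna. In Swarna the estimates of LOC_Os08g03682, LOC_Os03g07250, LOC_Os09g27620 and LOC_Os03g07140 were positive, at 0.50, 0.64, 1.54 and 0.11, without a call. The 8 loci summed to 20.8 to 60.4 CPM in DTY-IL under RDS against 53.0 to 608.9 CPM in controls. In Swarna they summed to 13.1 to 59.7 CPM under RDS against 69.0 to 109.6 CPM in controls.

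The 3 green tissue loci summed to 311.9 to 3849 CPM in DTY-IL under RDS against 5237 to 13030 CPM in controls, where 1 locus fell, and to 274.7 to 1077 CPM in Swarna under RDS against 7177 to 11080 CPM in controls, where all 3 fell. Of the 5 panicle MADS-box loci, 3 fell in each genotype, and none rose. Beside the counts of both lists, 17% of all tested genes fell and 16% rose in DTY-IL, and 22.7% fell and 21.6% rose in Swarna. No marker was at 0 in any of the 15 libraries in the late pollen, green tissue and panicle lists, and at most 1 of the anther and tapetum loci was. The groups of the late pollen and green tissue sums did not overlap in either genotype, as for OPR7, and their part in the fall of the jasmonate synthesis genes was not tested.

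**Figure D4:**
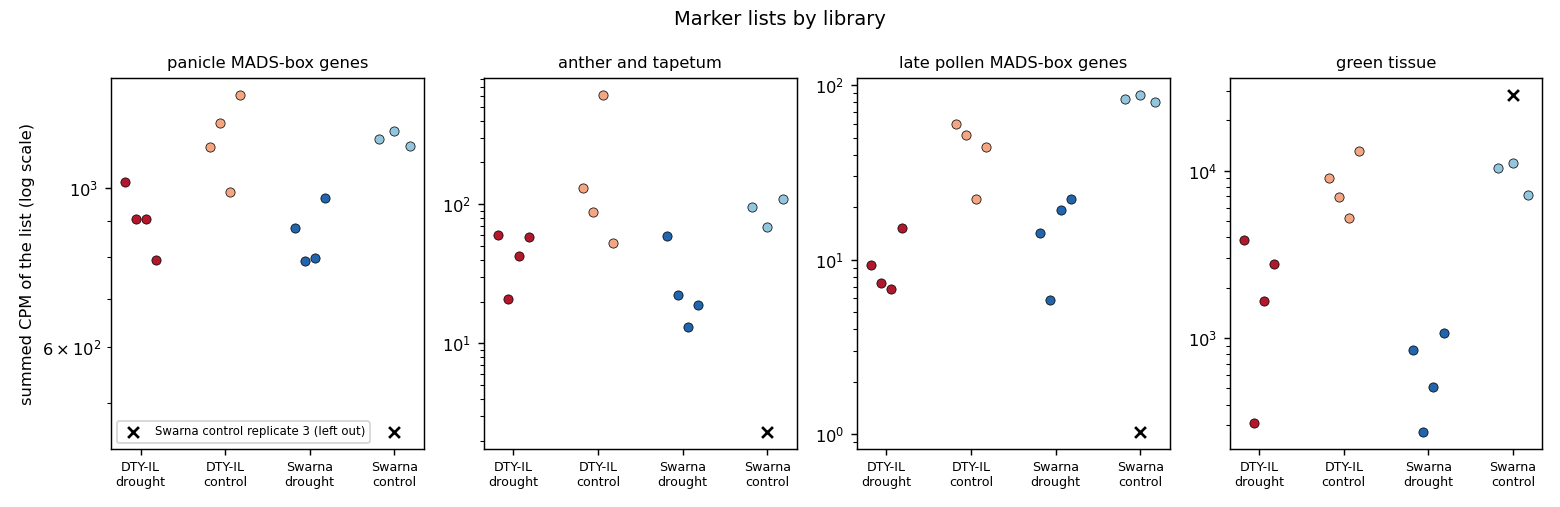
Summed CPM, scaled to each library's total count, of 4 lists of marker loci in every library, on log axes. Late pollen and green tissue sums are lower under RDS in both genotypes without overlap. The cross marks the Swarna control library that was left out, with 456 CPM of panicle MADS-box loci and 28140 CPM of green tissue loci.

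The 7 genes did not share a single profile across the 15 libraries. Among 21 pairs of genes, 19 had a Pearson r of log2 CPM above 0, with a median of 0.516 and a range from -0.31 to 0.915. After subtraction of each group's mean, 9 of 21 were above 0, with a median of -0.02. AOS1 and OPR7 had the highest r, 0.915 across libraries and 0.836 within groups. LOC_Os02g10120 had r from -0.31 to 0.07 with LOC_Os08g39850, AOS1, AOS2, AOC and OPR7, and 0.528 with LOC_Os08g39840. These values describe libraries that share group, depth and composition.

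Among 22782 genes with a mean of at least 1 CPM, the gene most like each member by Pearson r over the 15 libraries was found. OPR7 was most like LOC_Os06g48230 (r = 0.976), LOC_Os08g39840 was most like LOC_Os01g10170 (r = 0.954), AOC was most like LOC_Os03g14730 (r = 0.953) and AOS1 was most like LOC_Os03g12620 (r = 0.949). For LOC_Os08g39850 it was LOC_Os07g22710 (r = 0.935), for AOS2 it was LOC_Os05g25784 (r = 0.894), and for LOC_Os02g10120 it was LOC_Os01g32964, with the lowest r of the 7, 0.859.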

How the data were processed

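Panicle RNA-seq of DTY-IL and Swarna, well-watered and under RDS, was analysed. Per the paper's methods, the authors trimmed reads with Trimmomatic, quantified them with Salmon 0.7.2, with sequence and GC bias correction, against Nipponbare transcripts of the RGAP annotation, and summed transcripts per gene with tximport. The values are estimated counts, which the authors deposited as whole numbers without normalisation. The authors' tables of DESeq2 fold changes and p-values for the contrasts were not used. Flag leaf data were not analysed here.

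In R 4.3.3, a gene was kept if its counts over the 15 libraries reached 10 (33698 of 55801). All 4 groups were fitted together in edgeR 4.0.16 with TMM factors and the quasi-likelihood test, and p-values were Benjamini-Hochberg adjusted over all genes tested in each contrast, with a threshold of 0.05. Swarna control replicate 3, which the paper treats as an outlier, entered only an alternative. Replicate numbers are those of the table columns. Totals were 24677520 to 31080042 counts per library. Correlations used log2 CPM with a prior count of 2.

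The text names all 7 genes and the most similar gene to each. From the pathway lists it names loci with the largest absolute change of their list in a contrast, not in every contrast. It also names LOC_Os06g11240, LOC_Os06g11280 and LOC_Os06g11290, and these and the marker loci were named after their values were seen. The genes, lists and tests were chosen with earlier results of these data known. Of the 7 genes, 4 matched an entry of the RefSeq gene table by symbol. That table does not pair the locus identifiers with names, so lists rest on general knowledge. Alternatives were DESeq2 1.42.0, RLE factors, edgeR's filterByExpr or no filter on low counts, the inclusion of the left-out library, fits of the compared groups alone, a test of whether a change exceeded 1 on the log2 scale, and the omission of each library in turn. The fit was tested on simulated data.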

Additional observations from a re-analysis of the deposited data

Results flagged for a closer look

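The Swarna control library that was left out, replicate 3, held 2 of the 7 genes far above the other well-watered Swarna libraries. The lipoxygenase LOC_Os02g10120 had 18769 counts there, 646.4 CPM of the library total, against 13 to 25 counts in the other Swarna controls and 5 to 25 in all 15 libraries used. The lipoxygenase LOC_Os08g39850 had 239 counts there, against 58 to 69 in the other Swarna controls. The other 5 genes were below the other Swarna controls in this library, at 11 counts of LOC_Os08g39840, 273 of AOS1, 1 of AOS2, 2076 of AOC and 528 of OPR7. In the same library 4 of 5 panicle MADS-box loci were below all 15 libraries, as LOC_Os03g11614 with 138 counts against 4767 to 13806, and LOC_Os03g54160 was above them, with 11259 counts against 3907 to 6204. The late pollen loci summed to 1.03 CPM, and the green tissue locus LOC_Os12g17600 had 474763 counts, against 940 to 96784. No replicate of this library was at hand to compare these values with.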

How the results depend on the processing

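Of 763 alternative values for single genes, 712 kept their direction and their side of the threshold, 20 lost a call, 7 gained one and 24 changed sign, none of the last a called value. Without a filter and with only the groups compared, OPR7 between the genotypes in controls became -0.0242 and -0.0235 (log2). With all 16 libraries, AOS2 in that contrast became 0.289 and the LOC_Os02g10120 interaction 8.67, and LOC_Os02g10120 was called in Swarna (-9.3, adjusted p = 0.00782), which follows from its 18769 counts in the added library. Leaving out libraries, sign-changing estimates ran from -0.416 to 0.089 for the LOC_Os02g10120 interaction, from -1.43 to 0.0156 for AOS2 under drought in DTY-IL, and, between genotypes in controls, from -0.983 to 0.23 for AOS2, from -0.137 to 0.0881 for OPR7 and from -0.0984 to 0.0522 for LOC_Os08g39850. Between genotypes under RDS they ran from -0.833 to 0.16 for LOC_Os08g39840.

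Of the counts of genes called, that for drought in DTY-IL, 1, became 0 with all 16 libraries and 0 in the test against a log2 fold change of 1, and was 1 to 2 over the left-out libraries. It was 2 without DTY-IL control replicate 3, drought replicate 1 or drought replicate 2. That for drought in Swarna, 6, became 1 in the test against 1 and was 3 to 6 over the left-out libraries, with 3 without Swarna control replicate 1 and 4 without control replicate 2. With all 16 libraries it was 5, as LOC_Os08g39840 (adjusted p = 0.06) and AOS2 (0.122) lost their calls and LOC_Os02g10120 gained one. That for genotype under RDS, 1, became 2 in DESeq2 and 0 with all 16 libraries, 0 with only the groups compared and 0 in the test against 1. The interaction count, 0, became 2 in DESeq2. Where no construction of the alternative is named, the cause was not tested. Over all genes, the interaction called 20 genes in edgeR, 795 in DESeq2 and 0 with all 16 libraries.

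No paired analysis was possible because the table's columns carry no pot numbers. At these depths LOC_Os02g10120, AOS2 and LOC_Os08g39840 rest on few counts. The SE of the drought log2 fold change in DTY-IL was 0.41 for LOC_Os02g10120, 0.59 for AOS2 and 0.967 for LOC_Os08g39840. In Swarna the SE was 0.414, 0.658 and 1 in the same order. LOC_Os08g39850, on 12 to 190 counts, had an SE of 0.408 in DTY-IL and 0.457 in Swarna. The part of low counts in these SE values was not tested.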
